A study of Mus musculus with 80 samples.

Results

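In the substantia nigra pars reticulata (SNr) of young GAD1-EGFP mice, 12 of 62 well covered GFP-positive cells (19.4%, exact 95% interval 10.4 to 31.4%) held a trace of the transcripts that define a dopaminergic neuron. The 12 were chosen by measured values of Th, Ddc and Slc6a3: a cell was a member if it carried the GFP-positive label, had more than 5000 genes over 1 TPM (transcript abundance scaled to a total of 1000000 per cell) and had at least 1 of these 3 genes over 1 TPM. The other 50 cells that met the label and the gene number had all 3 genes at 1 TPM or less and served as the comparison. The 3 genes therefore describe the members and support nothing further, and the comparison below was made on all other genes. The series holds 80 single cells, 72 GFP-positive and 8 GFP-negative, and 10 of the GFP-positive cells did not reach the gene number.

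Midbrain GABAergic and dopaminergic neurons lie side by side in the substantia nigra. GABAergic cells make their transmitter with the glutamate decarboxylases Gad1 and Gad2 and load it into vesicles with Slc32a1. Dopaminergic cells convert tyrosine to L-DOPA with tyrosine hydroxylase (Th), L-DOPA to dopamine with DOPA decarboxylase (Ddc), and take released dopamine back up with the transporter Slc6a3, while the vesicular transporter Slc18a2 and regulators such as Nr4a2, Pitx3, Lmx1b and Foxa2 complete and maintain the dopaminergic program. Astrocytes, oligodendrocytes and microglia surround both kinds of neuron.

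All cells came from C57Bl/6 mice that carry GFP under control of Gad1, aged postnatal day 14, 15, 16 or 20. The labels name no drug or further allele. According to the paper, dissociated tissue was kept either in a solution with sucrose in place of NaCl or in one with NaCl and lidocaine. The labels do not say which cells met which solution. Cells were released from SNr pieces by protease and trituration, drawn 1 at a time into a pipette from an open dish, and sequenced with the Smart-seq2 method without molecular identifiers. Animals are not named in the labels. The cells of an age may therefore share 1 mouse, a group counts as 1 sample, and no p-value is given. Intervals on shares cover counting error alone. Of 9 cells at day 14, 3 were members (33.3%, 7.49 to 70.1%). There were 3 of 20 at day 15 (15%, 3.21 to 37.9%), 5 of 24 at day 16 (20.8%, 7.13 to 42.2%) and 1 of 9 at day 20 (11.1%, 0.281 to 48.2%), and the 4 intervals overlap.

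The members were covered about as deeply as the other cells. They had 8347 ± 1112 genes over 1 TPM (SD, n = 12), against 7861 ± 1376 (n = 50). Estimated fragments per cell, read from the spacing of the lowest values, ran from 0.359 to 3.68 in units of 1000000 with a median of 2.09 in the members, and from 0.151 to 6.25 with a median of 1.78 in the others.

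The trace consisted of a single gene in 10 of the 12 cells. Another 2 cells held 2 of the genes, and 0 of 62 held all 3, which allows a share of up to 4.84%. Levels below are TPM, a measure per transcript length, and the fragment numbers are estimates. Th (GRCm38 chromosome 7, 142892752 to 142931128, minus strand) was over 1 TPM in 4 cells. It stood at 48.0 TPM in cell 15 (59.7 fragments), 26.6 in cell 7 (65.7 fragments), 22.9 in cell 17 (59.8 fragments) and 7.28 in cell 76 (17.2 fragments). Ddc (chromosome 11, 11814101 to 11898144, minus strand) was over 1 TPM in 5 cells. Cell 72 held 177 TPM (131 fragments), cell 1 held 24.8 (78 fragments), cell 40 held 24.5 (50.2 fragments), cell 19 held 16.3 (85.3 fragments) and cell 41 held 10.3 (8.4 fragments). Slc6a3 (chromosome 13, 73536747 to 73578672, plus strand) was also over 1 TPM in 5 cells: 70.6 TPM in cell 24 (89.1 fragments), 67.8 in cell 45 (269 fragments), 41.0 in cell 17 (199 fragments), 8.44 in cell 31 (4 fragments) and 4.63 in cell 40 (17 fragments). Ddc in cell 72 was the highest of these values, and the others lay between 4.63 and 70.6 TPM.

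No cell lay close to the threshold on its upper side. Just outside it were 4 cells above 0: cell 43 (Slc6a3 at 0.232 TPM), cell 10 (Ddc at 0.299), cell 60 (Th at 0.692) and cell 94 (Slc6a3 at 0.699), each the equivalent of about 1 fragment. Just inside were cell 76 at 7.28 TPM and cell 31 at 8.44 TPM of their highest gene. Astrocyte and oligodendrocyte levels, described below, ran from 1.28 to 2.31 and from 0.74 to 2.79 in the 4 cells just outside. The remaining 46 cells were at 0 for all 3 genes.

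**Figure D1:**
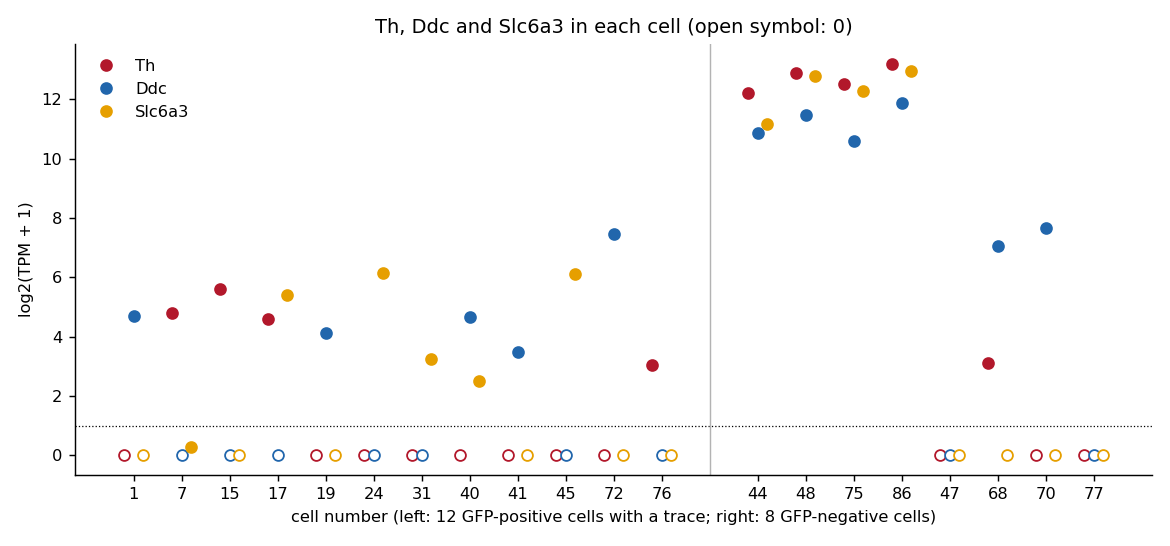
Th, Ddc and Slc6a3 in the 12 members (left) and the 8 GFP-negative cells (right), 1 symbol per gene and cell, on a log2(TPM + 1) axis; open symbols are values of 0 and the dotted line marks 1 TPM. The 3 genes stand together above 10 in GFP-negative cells 44, 48, 75 and 86, whereas 10 members carry 1 gene over 1 TPM and lie between 3 and 8.

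Among the GFP-negative cells, 44, 48, 75 and 86 carried the full set and give the scale of a dopaminergic neuron in these data. Their Th ran from 4742 to 9481 TPM, their Ddc from 1561 to 3750 TPM and their Slc6a3 from 2289 to 7885 TPM. Against the median of these 4 cells, the traces amounted to between 0.077% (Slc6a3 in cell 40) and 7.46% (Ddc in cell 72). The proportions among the 3 genes are given as description alone, since these genes chose the members. In the 4 cells Th exceeded Ddc 2.51- to 3.80-fold, Slc6a3 exceeded Ddc 1.21- to 3.17-fold, and Th exceeded Slc6a3 1.07- to 2.07-fold. Cell 45 held an estimated 269 fragments of Slc6a3 with Th and Ddc both at 0, and cell 72 held 131 fragments of Ddc with Th and Slc6a3 at 0. In cell 17 the ratio of Th to Slc6a3 was 0.559, and in cell 40 the ratio of Slc6a3 to Ddc was 0.189, each below the range of the 4 cells.

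Ddc was in addition present in GFP-negative cells 68 and 70, at 133 and 202 TPM, with Slc6a3 at 0 in both and Th at 7.73 TPM in cell 68. These cells were dominated by oligodendrocyte transcripts, with levels of the 8-gene oligodendrocyte list (mean log2(TPM + 1)) of 13.06 and 13.80.

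The members carried the transcripts of GABAergic neurons. Gad1 was over 1 TPM in 12 of 12 and Gad2 in 12 of 12, as in 50 of 50 of the other cells. On the log2(TPM + 1) scale Gad1 averaged 9.41 ± 0.66 in members and 9.58 ± 0.95 in the other cells, and Gad2 8.25 ± 0.70 and 8.12 ± 1.17. The vesicular transporter Slc32a1 was detected in 11 of 12 and 48 of 50. Snap25, a presynaptic fusion protein, averaged 11.50 ± 0.82 against 11.84 ± 0.64. Regulators of midbrain GABAergic fate did not stand apart either. Gata3 was detected in 12 of 12 members and 49 of 50 other cells, Tal1 in 10 and 36, and the level of the 5-gene list was 3.14 ± 1.22 and 2.91 ± 1.19.

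Pvalb, a calcium buffer that many fast-firing SNr neurons express, was the exception within the GABAergic list. It was detected in 8 of 12 members (66.7%, 34.9 to 90.1%) and in 45 of 50 other cells (90%, 78.2 to 96.7%). Members ran from 0 through a median of 7.79 to 10.31, and the other cells from 0 through 8.41 to 10.72, so the groups overlapped over their whole range. The mean was 5.81 ± 4.43 in members and 7.43 ± 3.11 in the others, a difference of -1.61. The 4 members without Pvalb were cells 1, 19, 24 and 72, from days 15 and 16. By age the difference was 1.34 at day 14, -5.25 at day 15, -2.01 at day 16 and 0.02 at day 20, and without day 15 it was -0.37.

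Genes of dopamine synthesis, packaging and breakdown were somewhat higher on average in members, none of them by 1 or more. Of 9 genes for synthesis cofactors, vesicular packaging and breakdown, 7 passed the filter on low values (over 1 TPM in 10% of the 62 cells or more), and 0 of the 7 differed by 1 or more in mean log2(TPM + 1). Across all 12777 genes compared, 6.25% were higher by at least 1 in the members and 3.1% were lower by at least 1, with a median difference of 0.07. The list's median difference was 0.48 over the 7 genes, beside an upper quartile of 0.44 over all genes compared. Of the 9 genes, 7 were detected in a larger share of members and 0 in a smaller share. The list was above the median of the other cells in 9 of 12 members, and its level, the mean over its genes in a cell, was 3.30 ± 0.86 in members and 3.06 ± 0.67 in the other cells. The number of genes of this list past 1 was 1 when any 1 age was left out, or any 1 of cells 1, 24, 31, 41, 72 and 76. For each of these cells the gene was Aldh1a1, described next, and without day 14 it was a different gene. Slc18a2, which fills vesicles with monoamines, was detected in 7 of 12 members (58.3%, 27.7 to 84.8%) and in 23 of 50 other cells (46%, 31.8 to 60.7%). Members ranged from 0 to 6.40 with a median of 2.57, and the others from 0 to 6.60 with a median of 0. It was highest, at 83.3 TPM, in cell 45, and it was at 0 in cells 7, 24, 41 and 72. In the 4 Th-rich GFP-negative cells it stood between 637 and 1948 TPM.

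Aldh1a1, an aldehyde dehydrogenase of ventral dopaminergic neurons, showed the largest difference of this list, at 0.87. It was over 1 TPM in 6 of 12 members (50%, 21.1 to 78.9%) and 12 of 50 other cells (24%, 13.1 to 38.2%), and the highest level lay in the comparison group (8.95, against 6.87 in cell 45). By age the difference ran from 2.92 at day 14 to -2.64 at day 20. Maoa, a monoamine oxidase, was detected in 9 of 12 members and 35 of 50 other cells. Gch1, which starts synthesis of the Th cofactor, was detected in cell 31 alone among the members (29.6 TPM, 11.1 fragments) and in 2 of the other 50.

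As a list, other transcripts that mark midbrain dopaminergic neurons were not higher in members. The level of this 11-gene list was 0.55 ± 0.42 in members and 0.64 ± 0.59 in the other cells, against 4.81 to 6.40 in the 4 Th-rich cells. Of 6 genes that could be compared, 0 differed by 1 or more, and the median difference was -0.26. The synuclein Sncg, at 1625 TPM or more in each of the 4 Th-rich cells, was detected in 2 of 12 members, cell 41 at 518 TPM and cell 1 at 19.5 TPM, and in 13 of 50 other cells. Chrna6, a nicotinic receptor subunit, was found in cell 24 alone (394 TPM, 413.9 fragments), against 5 of the 50. The dopamine autoreceptor Drd2 was detected in 2 of 12 and 7 of 50, the GDNF-family receptor Ret in 4 and 19, and the potassium channel subunit Kcnj6 in 2 and 10. Ntsr1, the neurotensin receptor, was detected in cell 31 (9.23 TPM, 5 fragments) and in 0 of the 50, which allows a share of up to 6%. Slc10a4, present in each of the 4 Th-rich cells, was detected in 0 of 12 members, which allows a share of up to 25%, and in 1 of 50 other cells.

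Regulators of dopaminergic identity were sparse in both groups. The level of the 12-gene list was 0.78 ± 0.29 in members and 0.70 ± 0.33 in the other cells, and 0 of the 3 genes that could be compared differed by 1 or more. Nr4a2, a nuclear receptor needed for dopaminergic fate, was over 1 TPM in 0 of 12 members and 0 of 50 other cells, and in 3 of the 4 Th-rich cells. Foxa1, Lmx1b and Foxa2 were over 1 TPM in 0 members, but also in only 2, 1 and 0 of the 4 Th-rich cells, so their absence from members says little. Pitx3 was detected in cell 41 alone (5.80 TPM, about 3.1 fragments). Sox6 was detected in cells 1 and 40 (12.9 and 2.14 TPM) and in 1 of the 50. En1 was found in 4 of 12 and 18 of 50. Otx2, a homeodomain factor of ventral tegmental and other midbrain neurons, was high in cells 24 and 72 (576 and 461 TPM). It was higher still in 4 of the 50 other cells (581 to 864 TPM) and at 0 in the 4 Th-rich cells. Cells 24 and 72 were both without Pvalb, as were 2 of the 4 other cells with Otx2. Chrna6 went with Otx2: it was found in cell 24 and in all 4 of these other cells (cells 12, 28, 53 and 73, 129 to 815 TPM). Cell 72 had Otx2 without Chrna6, and cell 36, the remaining other cell with Chrna6 (15.1 TPM), had no Otx2.

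Counted over the 3 lists, members had 9.00 ± 1.65 of the 32 genes over 1 TPM and the other cells 8.00 ± 2.01, while the 4 Th-rich cells had 17 to 25. Of the 32 genes, 16 were detected in a larger share of members, 11 in a smaller share and 5 in an equal share. Among the 16 of them that could be compared, 9 were detected in a larger share of members, beside 58.4% of all genes compared.

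**Figure D2:**
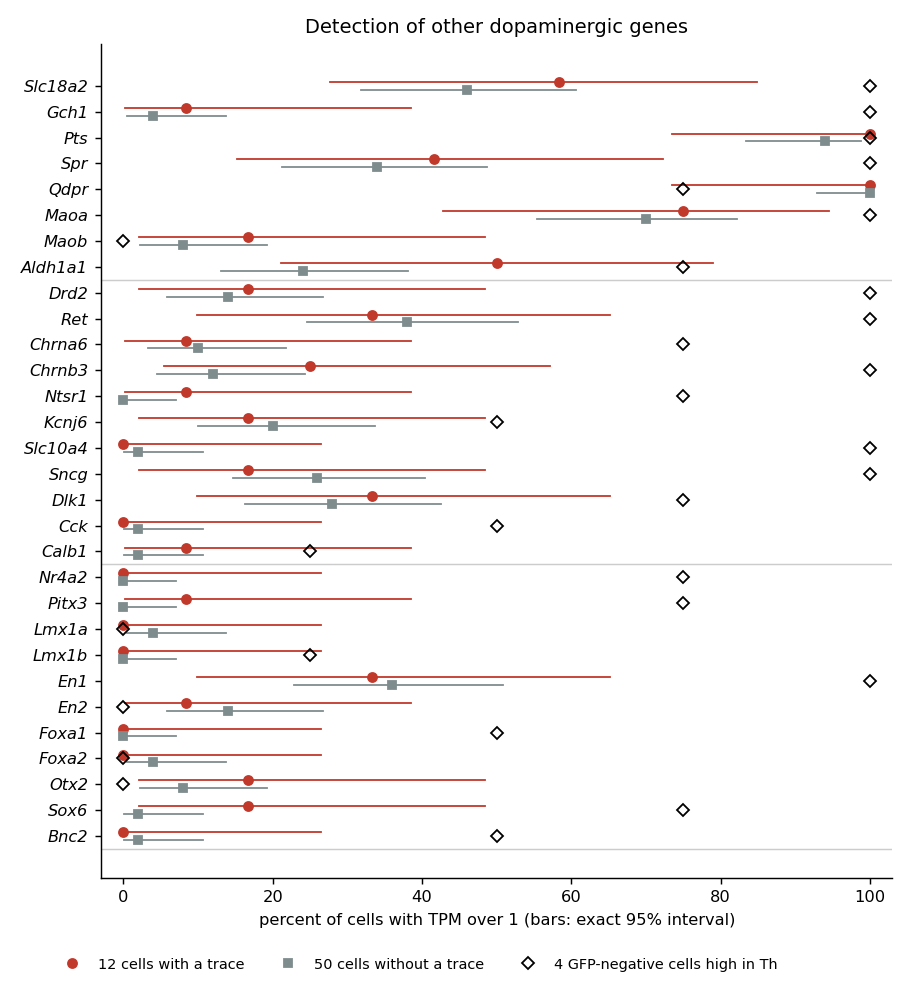
Percent of cells with more than 1 TPM of other dopaminergic genes, in the order synthesis, packaging and breakdown, other dopaminergic transcripts, and regulators; circles are the 12 members, squares the 50 other cells, bars their exact 95% intervals, and open diamonds the 4 GFP-negative cells high in Th. The intervals of members and other cells overlap for every gene drawn. Of genes present in each of the 4 Th-rich cells, Slc10a4, Sncg, Drd2, Gch1 and Chrnb3 lie at or below 30% in both groups. Slc18a2, Pts, Spr, Maoa, Ret and En1, also present in each, lie above 30% in both groups.

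Glial transcripts were higher in the members on average, with wide scatter. The astrocyte list (10 genes) had a level of 4.21 ± 1.66 in members and 3.20 ± 1.20 in the other cells, and 9 of 12 members were above the median of the other cells. That number alone did not set the list apart, since it was also 9 for dopamine synthesis and packaging, 8 for dopaminergic regulators and for general neuronal genes, and 11 for oligodendrocyte precursor genes. Of its 9 genes that could be compared, 6 were higher by at least 1 and 0 were lower by at least 1, beside the 6.25% and 3.1% of all genes, and the list's median difference was 1.24. Gja1, the astrocytic gap junction protein connexin 43, differed by 2.30. In members it ranged from 0 to 11.10 with a median of 4.85, and it was over 1 TPM in 8 of 12 (66.7%, 34.9 to 90.1%). In the other cells it ranged from 0 to 9.36 with a median of 0.17, and it was over 1 TPM in 18 of 50 (36%, 22.9 to 50.8%). The glutamate transporters Slc1a2 and Slc1a3 by 1.55 and 1.06, the lipoprotein Apoe by 1.40 and the intermediate filament Gfap by 1.24. Aldoc, a glycolytic enzyme abundant in all cells, differed by -0.57.

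A single cell carried part of the astrocyte difference. Cell 45 held 17131 TPM of Apoe and 2198 TPM of Gja1 and had a list level of 8.46, above the highest of the 50 other cells (6.27). Without it the level difference fell from 1.01 to 0.62 and the number of astrocyte genes higher by at least 1 from 6 to 3. When the 4 cells with about 1 fragment were counted as members, the difference was 0.30 and 1 astrocyte gene was past 1. That number was 2 without day 14 and 1 without day 15.

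Oligodendrocyte transcripts followed a similar course. The 8-gene list had a level of 4.08 ± 1.95 in members and 3.08 ± 1.40 in the other cells, a difference of 1.00, and 8 of 12 members were above the median of the other cells. Of the 8 genes 4 were higher by at least 1. Cldn11, a tight junction protein of myelin, was detected in 7 of 12 and 11 of 50 with a difference of 1.97, and Mag, a myelin adhesion molecule, in 5 of 12 (41.7%, 15.2 to 72.3%) and 4 of 50 (8%, 2.22 to 19.2%) with a difference of 1.38. Mobp differed by 1.24. Mbp, the most abundant of them, differed by 0.19 and Cnp by 0.06. With the 4 cells of about 1 fragment counted as members the level difference was 0.32, and without day 15 it was 0.49.

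Cells 17, 1 and 41 had the highest oligodendrocyte levels of the members (6.99, 6.70 and 6.39), below the highest of the other cells (7.34), and cell 24 the lowest (0.94). Set out by trace gene, all 5 members with Ddc were above the oligodendrocyte median of the other cells (level 5.14 ± 1.33), as were 3 of 4 with Th (4.46 ± 1.93) and 2 of 5 with Slc6a3 (3.23 ± 2.35). For the astrocyte list the numbers were 4 of 5, 3 of 4 and 4 of 5. Cells 17 and 40 count under 2 genes. Astrocyte and oligodendrocyte levels were both above these medians in 6 of 12 members (50%) and 19 of 50 other cells (38%), and both at or below them in 1 of 12 (8.33%) and 19 of 50 (38%). Over the 62 cells the 2 levels moved together (Pearson's r 0.53, Spearman's rho 0.60), a description across cells that share dissociation and library preparation. Spearman's rho of the astrocyte level with estimated fragments was -0.07.

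Microglial genes were rarer. P2ry12, a purine receptor of microglia, was detected in 4 of 12 members (33.3%, 9.92 to 65.1%) and 3 of 50 other cells (6%, 1.25 to 16.5%), with a difference of 1.01 that dropped to 0.64 without cell 17. It was the 1 microglial gene of 7 detected often enough to be compared. It passed the 10% filter only through the members, since its share in the other cells was 6%. Its difference therefore supports nothing further. Cell 17 held 5 of the 7 microglial genes and a level of 3.74, and without it the level difference fell from 0.33 to 0.04. Tmem119 was at 0 in all 62 cells. Endothelial genes and oligodendrocyte precursor genes were near 0 in both groups, with levels of 0.03 ± 0.07 and 0.06 ± 0.20 for the former and 0.25 ± 0.34 and 0.17 ± 0.31 for the latter, and genes of other transmitters stood at 0.06 ± 0.06 and 0.08 ± 0.13. Immediate early and heat shock genes did not differ by 1 in any of the 7 that could be compared (1.09 ± 0.85 and 1.10 ± 0.78). The part that glial transcripts play in the presence of a trace was not tested.

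**Figure D3:**
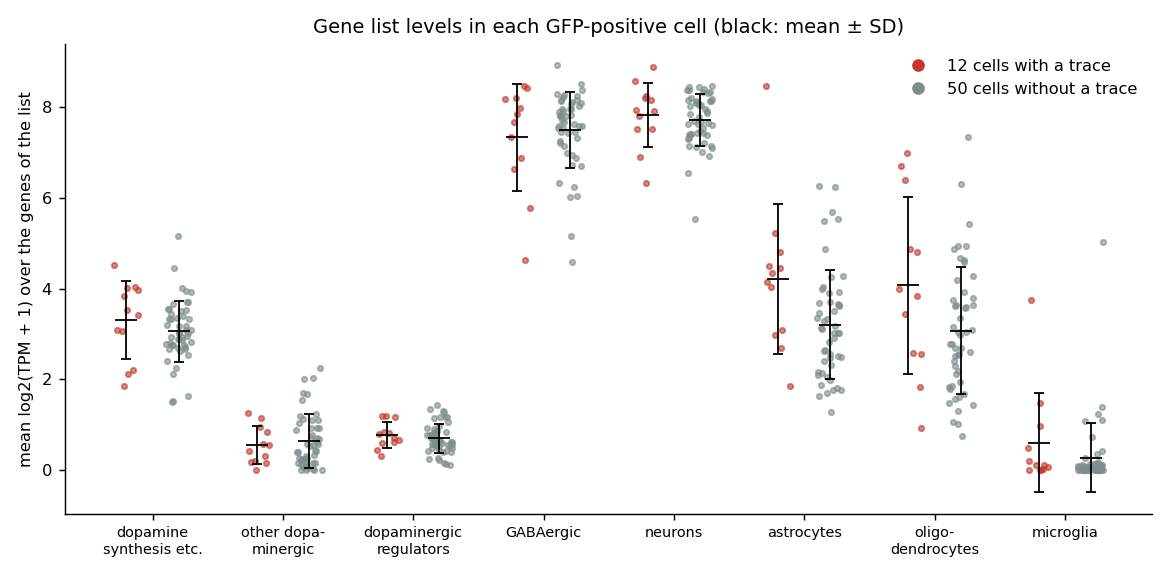
Mean log2(TPM + 1) over the genes of 8 lists in each cell, 12 members in red and 50 other cells in grey, with the mean and SD over cells in black. The neuronal and dopaminergic lists overlap almost fully, and the astrocyte and oligodendrocyte lists sit about 1 higher in members with cell 45 alone at 8.46 for astrocytes.

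**Figure D4:**
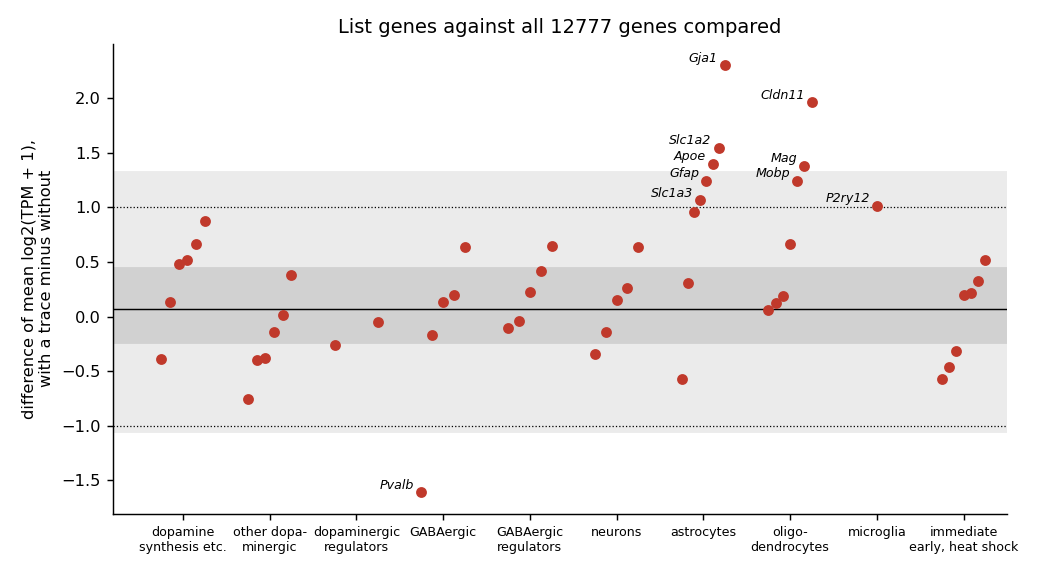
Difference in mean log2(TPM + 1), members minus other cells, for list genes that could be compared; the dark band holds the middle 50% of all 12777 genes, the light band the middle 95%, the line is their median and the dotted lines mark differences of 1 and -1. Labelled genes lie past 1 in either direction: 5 astrocyte genes, 3 oligodendrocyte genes, P2ry12 and, below, Pvalb. P2ry12 and the oligodendrocyte gene Mag passed the filter only through the members.

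The glial differences were not the same at each age. Astrocyte levels were higher in members by 2.95 at day 14 (3 against 6 cells) and by 1.94 at day 15 (3 against 17), where 3 of 3 members were above the mean of the other cells at both ages. At day 16 (5 against 19) the difference was -0.66 with 2 of 5 members above that mean, and at day 20 (1 against 8) it was 0.13. Oligodendrocyte levels differed by 1.32 at day 14, 2.32 at day 15, 0.35 at day 16 and -0.62 at day 20. With age as a term the overall differences were 0.89 and 1.00. Without day 16 the astrocyte difference was 2.13, and it was 0.43 without day 14 and 0.60 without day 15. Whether the ages differ was not tested, and age and animal cannot be told apart. Genes higher by at least 1 with the same sign at days 14, 15 and 16 made up 3.5% of those compared. Among list genes they included Slc1a2, Cldn11, Mag and P2ry12, of which Mag and P2ry12 passed the filter only through the members.

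**Figure D5:**
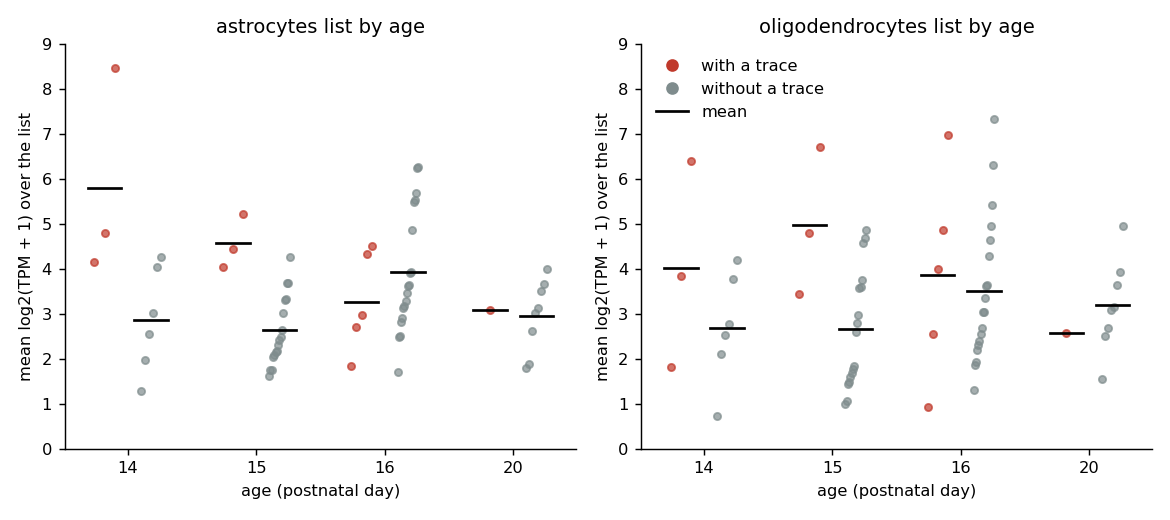
Level of the astrocyte list (left) and the oligodendrocyte list (right) in each cell by postnatal age, as mean log2(TPM + 1), members in red and other cells in grey, with bars at the group means. Members exceed the other cells on average at days 14 and 15 for both lists, and at day 16 the astrocyte mean of members is the lower of the pair.

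The same detection rule was applied to triples of genes that mark other cells. Against 12 of 62 cells for the dopaminergic triple, at least 1 gene over 1 TPM was found in 6 cells for the noradrenergic triple (Dbh, Slc6a2, Pnmt), in 3 for the serotonergic, in 2 each for the glutamatergic and endothelial, and in 1 for the cholinergic. Over 10 TPM the dopaminergic triple remained in 10 cells, the serotonergic in 2 and the other 4 of these in 0. With every value over 0 TPM counted the dopaminergic triple was found in 16 cells. The noradrenergic triple was then more frequent, in 8 members and 32 other cells, as was the glutamatergic, in 7 and 22. The remaining triples of these stayed rarer, with at most 2 and 7 (endothelial), 2 and 6 (cholinergic) and 0 and 3 (serotonergic). Among the glial triples, a gene of the oligodendrocyte triple (Mog, Mag, Mobp) was found in 49 of 62 cells, of the astrocyte triple (Gja1, Aqp4, Aldh1l1) in 31, of the microglial triple (Cx3cr1, P2ry12, C1qa) in 11 and of the precursor triple (Pdgfra, Cspg4, Gpr17) in 8. Split by trace, the oligodendrocyte triple was present in 11 of 12 members and 38 of 50 other cells, the astrocyte triple in 9 and 22, and the microglial triple in 5 of 12 (41.7%, 15.2 to 72.3%) and 6 of 50 (12%, 4.53 to 24.3%).

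Over all genes compared, 798 were genes higher by at least 1 in cells with a trace, and 396 were genes lower by at least 1 in cells with a trace. These numbers moved with the ages included, to 1245 and 611 without day 14, to 1112 and 595 without day 15 and to 1456 and 850 without day 16. For 747 of the 798 genes the difference was smaller than the SD among the 50 other cells. Among genes detected in at least 50% of the higher group and with the same sign at days 14, 15 and 16, the 10 with the largest positive difference included Cib2, 2810029C07Rik, Tmem42, Jam3, Fads2, Zfp346, 1110012L19Rik, Prkra and Atp1b2. Cib2, a calcium- and integrin-binding protein, was detected in 12 of 12 members and 27 of 50 other cells (6.05 ± 1.55 and 3.17 ± 3.12, a difference of 2.89). Jam3, a junctional adhesion molecule, was detected in 9 of 12 and 10 of 50 with a difference of 2.69. It stood at 8.66 and 9.05 in GFP-negative cells 68 and 70, rich in oligodendrocyte transcripts. In the Th-rich cells it was at 4.67 in cell 48, 3.64 in cell 86 and 0 in cells 44 and 75. Fads2, a fatty acid desaturase, was detected in 9 of 12 and 9 of 50 with a difference of 2.61. It was at 0 in cells 68, 70, 44 and 75, at 3.46 in cell 48 and at 1.92 in cell 86. Atp1b2, a sodium pump subunit found in glia and neurons, was detected in 12 of 12 and 39 of 50 with a difference of 2.35.

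The 10 genes with the largest negative difference by the same rule included Gmds, 1110032A03Rik, Rpa3, Itgb1bp1, Tnfrsf12a, Yif1a, Med20, Mterfd1 and Fdx1l. Gmds, which starts GDP-fucose synthesis, was detected in 2 of 12 members and 31 of 50 other cells (0.64 ± 1.51 and 3.52 ± 2.96, a difference of -2.88).

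Library indexes were also compared. Each of the 80 cells had its own pair drawn from 12 first and 8 second indexes. An index was shared with 1 of the 4 Th-rich GFP-negative cells by 7 of 12 members (58.3%, 27.7 to 84.8%) and by 27 of 50 other cells (54%, 39.3 to 68.2%). Th-rich GFP-negative cells were collected at days 14 and 16, the ages of 8 of 12 members (66.7%, 34.9 to 90.1%) and 25 of 50 other cells (50%, 35.5 to 64.5%). The labels name no dissociation, so a shared age need not mean a shared dish. At day 16 the Th-rich cells were cells 75 and 86. Of the day 16 members, cell 76 was numbered near these, and cells 15, 17, 19 and 24 far below them. The labels do not say whether cell numbers follow collection order or dish.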

How the data were processed

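Single cells from the SNr of GAD1-EGFP mice were sequenced as paired reads of 25 bases. The authors aligned them with TopHat 2.0.10 to GRCm38 (mm10) and deposited FPKM values per gene from the Cufflinks suite 2.2.1 (Cuffnorm), keeping cells with at least 100000 aligned pairs and 50% of reads aligned. The annotation and Cuffnorm's library scaling are not given in the sources used here. FPKM were rescaled to TPM (sum of 1000000 per cell) and compared as log2(TPM + 1), with a pseudocount of 1, so the differences of low genes are understated. Cells were grouped by their labels and by the rule given in the report. Members and gene lists were chosen with earlier results of these data known. A gene was compared if over 1 TPM in at least 10% of the 62 cells, leaving out Th, Ddc and Slc6a3, and a difference of 1 in either direction was counted. Some list genes and genes named by the rule below are not reported here or drawn, though they count in list levels and totals. List genes were named whatever their values, together with the 10 genes of largest difference in each direction found in 50% or more of the higher group's cells and of the same sign at every age with at least 2 members. Cells are not replicates, so no test was run. Shares have exact Clopper-Pearson 95% intervals, and a count of 0 allows 3 counts.

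Fragments were estimated, since no counts were used here, from the spacing of low FPKM times transcript length less 200 bases over 1083 genes with 1 transcript in GENCODE M21 (same build). A median of 71.1% of the low values in a cell fell within 0.05 steps of a whole number (54.9% at least). The estimator and the differences were tested on simulated data. PCR copies are counted, as no molecular identifiers were used. Python 3 with pandas, numpy and scipy was used. Alternatives covered pseudocount, unit, filters, cells, thresholds, age, scaling and leaving out each age or member.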

Additional observations from a re-analysis of the deposited data

Results flagged for a closer look

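The 3 sets of 4 to 10 cells of 1 age and 1 side (5 day 16 members, 6 day 14 and 8 day 20 cells without a trace) were looked at for a cell far from the rest in list levels, genes and estimated fragments. This made 27 combinations of a set and a measure, and for normally distributed values chance alone sets off about 1 in 20 of them. Microglial levels were near 0 in most cells (median 0.06, highest 5.02 in the cells without a trace), so that rate need not hold for them. Cell 17 had a microglial level of 3.74 among the 5 day 16 members, the next at 0.48. Cell 36 had a microglial level of 5.02 among 8 day 20 cells without a trace, the next at 0.34. Cell 53 had 6266 genes among 6 day 14 cells without a trace, the next lowest at 8574. Cell 37 had an estimated 2.52 fragments in units of 1000000 among 8 day 20 cells without a trace, the next at 0.955.

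The GABAergic list moved in opposite directions at 2 ages. All 3 members were above the mean of the other cells at day 14 (by 0.45 on average) and all 3 below it at day 15 (by -0.80), a gap of 1.25 that was not tested. Pvalb differed by 1.34 and -5.25 at these ages, Gad1 by -0.54 and 0.22.

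Among the 10 GFP-positive cells that did not reach 5000 genes, cell 18 held 553 TPM of Th (75.3 fragments), above each member. It had 1271 genes, a GABAergic list level of 0.00, an oligodendrocyte level of 5.68 and an astrocyte level of 7.41.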

How the results depend on the processing

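The differences of 31 named genes past 1 and of the 13 list levels kept within 1 SD of the cells without a trace, and none of the 31 changed sign, under all 27 alternatives for them. Since 1 SD over cells is wide, this says little about stability. The number of members was 16 at over 0 TPM, 12 at over 5, 10 at over 10, 13 with all 72 GFP-positive cells and 12 by FPKM.

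Counts of genes past 1 moved more. The number of genes higher by at least 1 in cells with a trace was 2293 with a pseudocount of 0.1, 428 by FPKM, 499 among genes detected in at least 50% of cells, 1245 without day 14 and 1456 without day 16. The number of genes lower by at least 1 in cells with a trace was 996 with a pseudocount of 0.1, 225 by FPKM, 213 with all 72 cells, 630 at a trace over 10 TPM, and 611, 595 and 850 without days 14, 15 and 16. The cause of these shifts was not tested. Leaving out 1 member gave 771 to 1159 higher and 292 to 545 lower. Astrocyte triples reached 39 of the 50 other cells at detection over 0 TPM. Microglial triples reached 8 members and 28 other cells at over 0 TPM and 3 and 3 at over 10. The median over microglial genes compared changed sign to -0.042 without day 16, where more genes passed the filter.

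Of the dopaminergic lists, synthesis and packaging had 0 or 1 gene past 1 when 1 member was left out and 2 with a pseudocount of 0.1. The difference over all 3 lists in genes per cell was 1.00, and 1.18, 0.38 and 1.25 at over 0 TPM, over 10 TPM and in 72 cells. No paired analysis was possible because no result comes from a test and cell numbers tie no cells across groups. Depth limits the members least covered: the trace of cell 31 rests on an estimated 4 fragments and that of cell 41 on 8.4.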
